A study of Mus musculus with 2 samples.

Results

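Transcripts of 8 Adam genes outside the Notch pathway were measured in PGK12.1, a female embryonic stem cell line of the mouse, before differentiation and at day 15 of its differentiation into embryoid bodies. The genes are Adam8, Adam9, Adam12, Adam15 and Adam19, whose proteins are active proteases, and Adam11, Adam22 and Adam23, whose proteins are not. They were chosen by name, with their values known, and every probe set that names one of them alone was used: 17 of the 34945 probe sets that name 1 gene, for 8 of 18193 measured genes. At day 15 the mesenchymal protease gene Adam12 was at least 32.4-fold higher, Adam9 was 9.45-fold higher, Adam22 3.44-fold, Adam15 3.31-fold and Adam19 2.28-fold, while Adam11 was at least 2.46-fold lower and Adam8 and Adam23 stayed within 2-fold.

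The line came from blastocysts of a 129 mother and a (129 X PGK)F1 father. Stem cells were kept with leukemia inhibitory factor on embryonic fibroblast feeders, which were removed by letting them settle on gelatin before collection or differentiation. Total RNA of each condition was hybridised to 1 Affymetrix array, so each condition is 1 culture of 1 line, and no value has a replicate error. The study set out to follow the X chromosome during differentiation, and both arrays hold bulk RNA in which more cells of a type and more RNA per cell cannot be told apart.

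ADAM proteins are membrane-anchored and carry a prodomain, a metalloprotease domain, a disintegrin domain and, in most members, a cytoplasmic tail. The active ones cut the extracellular part of other membrane proteins close to the cell surface, a step called shedding, which frees growth factors of the EGF family, adhesion molecules and receptors. The others lack an intact zinc-binding site and serve as adhesion molecules and receptors, chiefly on neurons, where they bind secreted LGI proteins. Adam10 and Adam17 encode the proteases best known for cutting Notch.

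Values are linear signal intensities as deposited, scaled to the same trimmed mean on both arrays. A gene is represented by its probe set with the highest mean log2(signal + 16), and a log2 difference is day 15 minus undifferentiated on that scale. A gene is called higher or lower when that difference reaches 1, and a fold is the ratio of the signals themselves. Where the dimmer signal lay under 35.6, the brightest of 15 bacterial controls without target, only a lower bound of the fold is printed, the brighter signal divided by 35.6 ("at least"). That limit rests on 1 control probe set, and the next brightest read 23.0. Of 11960 genes above the expression filter, 16.5% were called higher and 8.41% lower. The higher genes made up 66.3% of these calls as deposited, 54.6% after quantile normalization and 37.7% after scaling on the hybridization controls. Among 5157 genes with several probe sets above the filter, the log2 difference varied between probe sets of a gene with an SD of 0.53, which covers no variation between cultures.

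**Figure D1:**
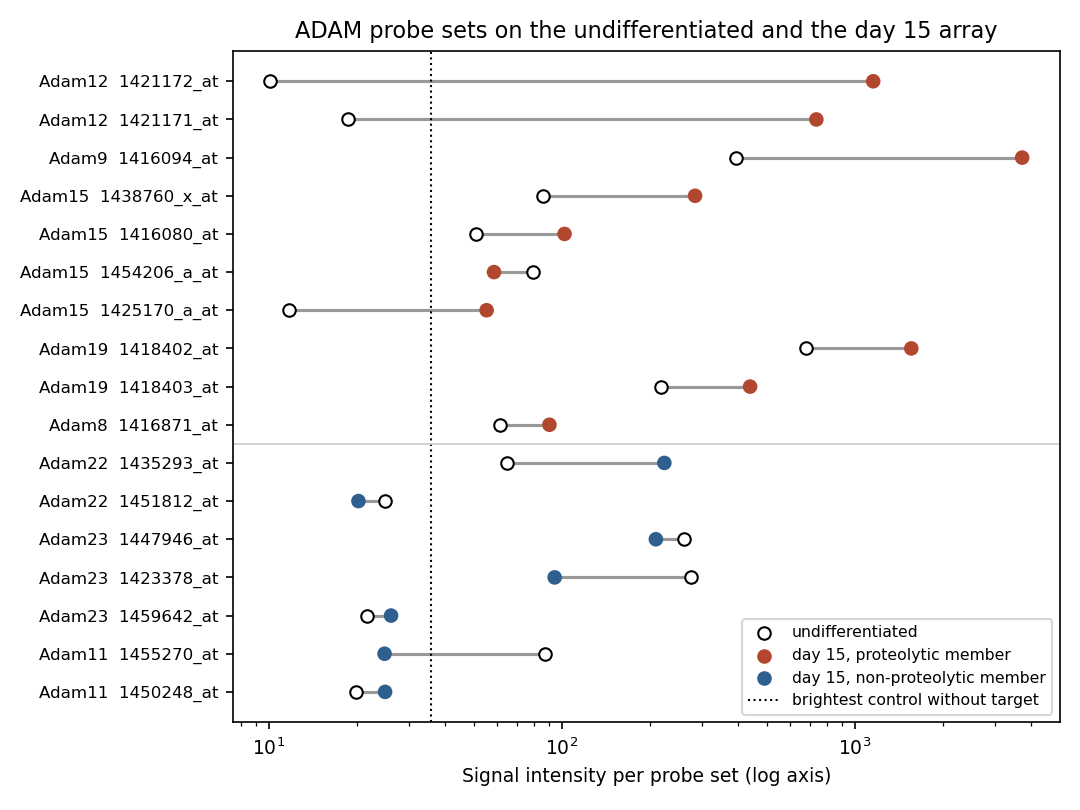
Signal intensity (log axis) of the 17 probe sets of the 8 Adam genes on the undifferentiated array (open circles) and the day 15 array (filled circles, coloured by class); each line joins the 2 values of 1 probe set, and the dotted line marks the brightest control without target (35.6). The widest gaps belong to Adam12 and Adam9, and 3 probe sets of non-proteolytic members lie left of the dotted line on both arrays.

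Adam12 had the largest difference of the 8. Its product, meltrin alpha, is made by mesenchymal cells and by fusing myoblasts, and has been reported to cut HB-EGF and the IGF-binding proteins. Probe set 1421172_at read 10.1 in undifferentiated cells and 1153.4 at day 15, and 1421171_at read 18.6 and 737.8. Both probe sets lay below the control limit before differentiation and far above it afterwards. The log2 differences were 5.49 and 4.45, at least 32.4-fold and at least 20.7-fold, or at least 50.1-fold and 32.1-fold against the next brightest control. Since the undifferentiated signals lay below the control limit, only these bounds of the fold are measured. The filter uses the mean of both arrays, so Adam12 passed it only through its day 15 signal.

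Adam9 was already measured clearly before differentiation and was higher still at day 15. It encodes meltrin gamma, a broadly made sheddase for which HB-EGF and the amyloid precursor protein are among the reported substrates. Its single probe set read 393.4 and 3717.8, a log2 difference of 3.19 and rank 283 from the top. No second probe set was there to set beside it.

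Adam15 and Adam19 were higher by smaller amounts. Adam19 encodes meltrin beta, a neuregulin sheddase needed for heart valve and septum formation. Its probe sets read 682.8 and 1556.1, and 218.1 and 438.4, so both were about equally higher (2.28-fold and 2.01-fold, log2 differences of 1.17 and 0.96). Only the brighter one reached the call, and scaling on the hybridization controls brought it to 0.78, below the call.

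Adam15 encodes metargidin, a protease with many alternatively spliced tails, and its 4 probe sets did not move together. The brightest, 1438760_x_at, read 86.0 and 284.5 (log2 difference 1.56), 1416080_at read 50.8 and 102.0 (0.82), and 1454206_a_at read 79.7 and 58.6 (-0.36). The fourth, 1425170_a_at, lay below the filter at 11.7 and 55.3 (at least 1.55-fold higher). The gene therefore counts as higher through a probe set whose suffix x marks probes shared with other sequences. With suffixed probe sets (a, s or x) left out it measured 0.82, and with the mean over its probe sets 0.85, both short of the call.

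Adam8 encodes a protease of leukocytes and osteoclasts, also known as CD156. Its single probe set read 61.4 and 90.6, a log2 difference of 0.46 that did not reach the call. Leukocyte markers summed to 1268 in undifferentiated cells and 1018 at day 15, with 2 of 4 above the filter called higher and 0 lower. Over all genes above the filter, 16.5% were called higher and 8.41% lower. The called genes were Csf1r, the receptor of a macrophage growth factor (59.6 and 276.3, 4.64-fold), and Tyrobp, a myeloid signalling adaptor (13.2 and 98.4, at least 2.76-fold). Other Csf1r probe sets above the filter differed less, at 46.3 and 115.3 (log2 difference 1.08), and 111.2 and 151.8 (0.40). Laptm5 (949.2 and 490.3) and Cd68 (238.6 and 118.3) read lower and made up most of the sum. The pan-leukocyte gene Ptprc (4.80 and 14.4) and the myeloid integrin gene Itgam (2.80 and 20.5) lay below the control limit on both arrays. Of 4 osteoclast markers 2 passed the filter and 0 were called (summed signal 130.1 and 134.0). The part of either cell type in the Adam8 signal was not tested.

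The 3 non-proteolytic members went in different directions. ADAM22 is the neuronal receptor of LGI1 and sits in the postsynaptic membrane. Probe set 1435293_at of Adam22 read 64.9 and 223.5 (log2 difference 1.57), while 1451812_at read 24.8 and 20.2, below the control limit on both arrays. One probe set alone thus carried the higher value, and the mean over both gave 0.70.

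ADAM23 also binds LGI1 and has been reported to bind the integrin alpha-v beta-3. Its probe set 1447946_at read 260.0 and 209.1 (log2 difference -0.29), and 1423378_at read 275.3 and 94.4, 2.92-fold lower (-1.40). Both read lower at day 15, but the brightest by mean, which represents the gene, stayed within 2-fold. The other one lay below the control limit on both arrays (21.6 and 26.1).

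ADAM11 helps to place potassium channels at inhibitory nerve endings of the cerebellum. Its probe set 1455270_at read 87.4 and 24.8, at least 2.46-fold lower with a log2 difference of -1.34, and 1450248_at read 19.8 and 24.9, below the control limit on both arrays. A single probe set thus carries the call. A pseudocount of 64 brought it to -0.77 and the mean over both probe sets to -0.57, both short of the call, the latter below the filter too.

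Of 5 neuronal markers above the filter, 2 were called lower (Nefl and Tubb3) and 0 higher. Over all genes above the filter, 8.41% were called lower and 16.5% higher. The summed signal of all 7 listed markers was 5365 in undifferentiated cells and 2825 at day 15. Stmn2 (3787.3 and 2174.5, log2 difference -0.80, not called) made up most of both sums. Snap25 (7.90 and 2.30) and Dcx (29.5 and 26.7) lay below the control limit on both arrays. Adam11 and Adam23 shared the direction of that list and Adam22 did not. The part of neuron-like cells in these 3 signals was not tested.

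**Figure D2:**
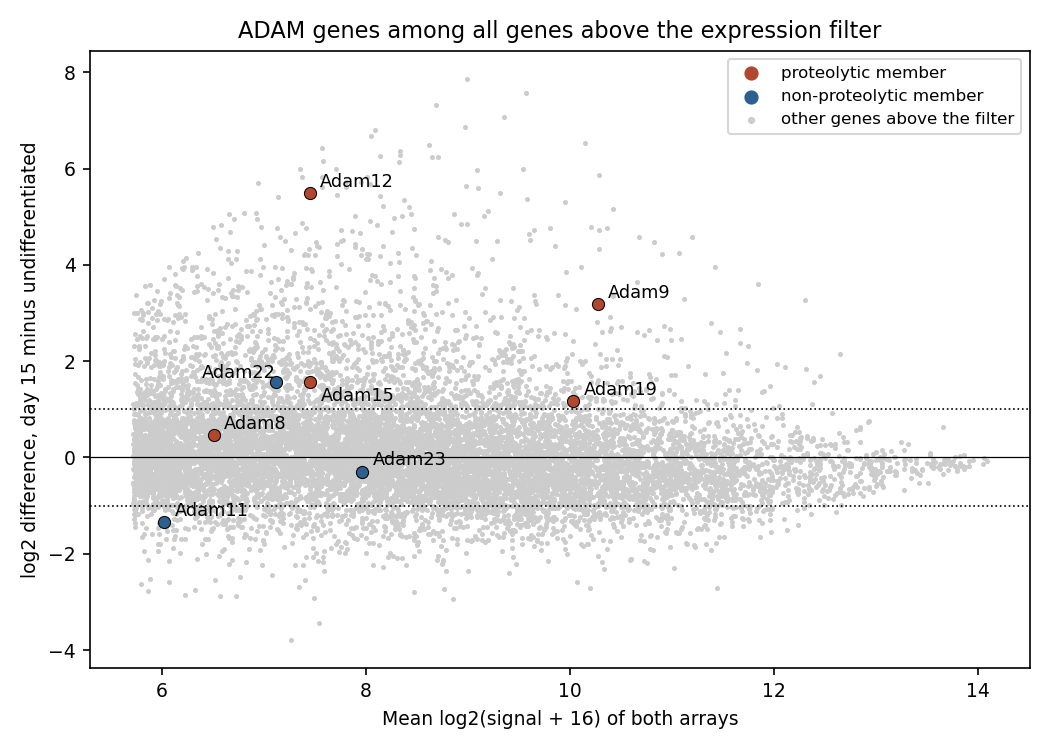
Each point is 1 of the 11960 genes above the expression filter, placed by its mean log2(signal + 16) over both arrays (x) and its log2 difference, day 15 minus undifferentiated (y); dotted lines mark a log2 difference of 1 in either direction. Adam12 (5.49) and Adam9 (3.19) stand high in the cloud, Adam22, Adam15 and Adam19 lie just above the upper line, and Adam11 (-1.34) lies below the lower one.

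Set side by side, 4 of 5 proteolytic members were called higher, 1 lay between and 0 were lower, with a median log2 difference of 1.56 (range 0.46 to 5.49), beside 16.5% of all genes above the filter called higher and 8.41% lower. Of the 3 non-proteolytic members 1 was called higher, 1 lay between and 1 was lower, with a median of -0.29 (range -1.34 to 1.57). The median over all 11960 genes was 0.00052. The classes overlapped, since Adam22 lay above Adam15, Adam19 and Adam8. Among probe sets above the filter, where 16% of all single-gene probe sets were called higher and 7.66% lower, the proteolytic members had 5 of 9 called higher and 0 lower, and the non-proteolytic members 1 of 4 higher and 2 lower. With 1 array per condition, and members chosen with their values known, the difference between the classes has no test. With the mean over probe sets the proteolytic median was 1.06 and the non-proteolytic one -0.51 over all 3 genes, or 0.093 over Adam22 and Adam23 alone, since Adam11 (-0.57) then fell below the filter.

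**Figure D3:**
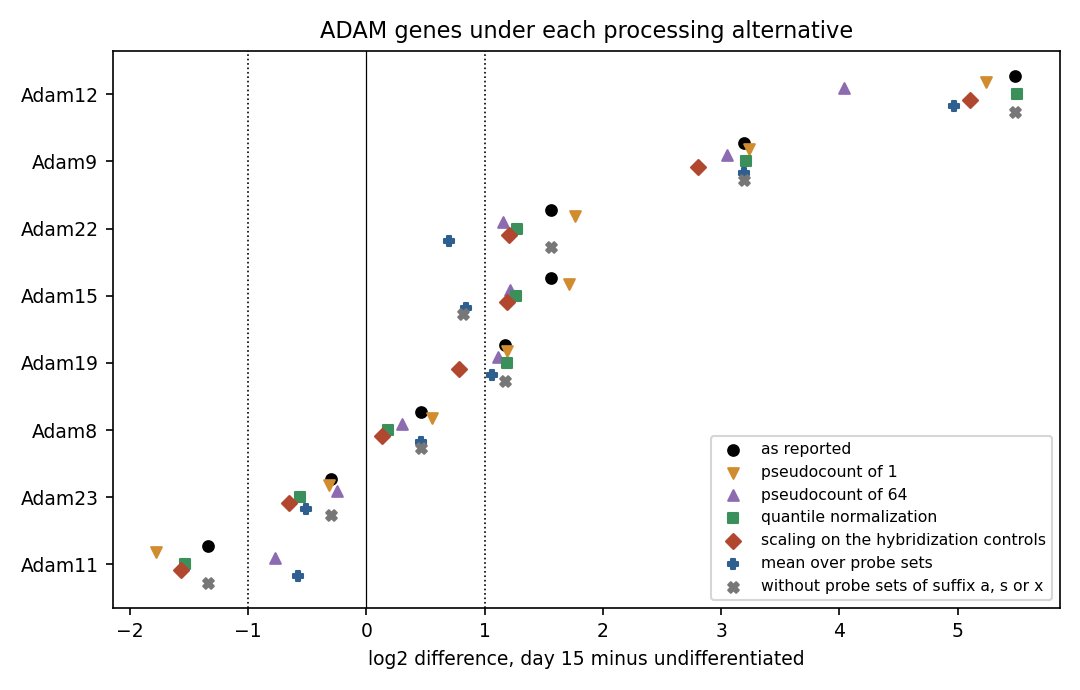
The log2 difference, day 15 minus undifferentiated, of each Adam gene as reported and under 6 other ways of processing (1 symbol each); dotted lines mark a log2 difference of 1 in either direction. Every gene keeps its sign under the settings drawn, Adam12 and Adam9 stay far to the right, and Adam22, Adam15, Adam19 and Adam11 each cross a dotted line under at least 1 setting.

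Promoter windows of 5 of the 8 genes were found in the RefSeq table for assembly GRCm38.p6, which covers 250 bases before to 50 after each annotated start. The windows of the 3 matched genes that were called higher at day 15 are shown together with that of Adam23, a non-proteolytic relative of Adam22 that was not higher. Of the 3 Adam19 windows, the one with the most CpG dinucleotides is shown. Each is written 5′ to 3′ along the gene's strand. Capitals mark matches, on either strand and with overlapping matches counted, to the AP-1 site TGANTCA, the GC box GGGCGG, the TATA box TATAAA or the TEAD site GGAATG.
Adam15, chr3:89349979-89350278, minus strand: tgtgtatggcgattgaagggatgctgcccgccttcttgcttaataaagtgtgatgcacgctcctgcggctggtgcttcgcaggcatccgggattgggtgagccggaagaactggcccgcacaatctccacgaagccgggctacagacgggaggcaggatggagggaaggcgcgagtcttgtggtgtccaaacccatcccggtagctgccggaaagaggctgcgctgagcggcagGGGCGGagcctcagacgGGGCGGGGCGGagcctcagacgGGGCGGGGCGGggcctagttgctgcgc
Adam19, chr11:46055734-46056033, plus strand: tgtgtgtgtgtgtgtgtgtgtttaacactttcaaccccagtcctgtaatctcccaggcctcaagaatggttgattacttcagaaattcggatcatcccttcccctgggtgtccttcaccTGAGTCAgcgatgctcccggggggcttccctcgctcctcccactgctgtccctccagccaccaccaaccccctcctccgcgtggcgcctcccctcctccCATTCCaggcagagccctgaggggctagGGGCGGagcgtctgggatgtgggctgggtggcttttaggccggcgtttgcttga
Adam22, chr5:8368111-8368410, minus strand: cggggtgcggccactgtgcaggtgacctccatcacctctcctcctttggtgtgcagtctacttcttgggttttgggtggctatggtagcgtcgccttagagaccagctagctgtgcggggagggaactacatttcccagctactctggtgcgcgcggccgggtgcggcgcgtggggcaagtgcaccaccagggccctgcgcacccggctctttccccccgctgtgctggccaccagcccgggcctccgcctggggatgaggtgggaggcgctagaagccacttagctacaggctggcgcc
Adam23, chr1:63445641-63445940, plus strand: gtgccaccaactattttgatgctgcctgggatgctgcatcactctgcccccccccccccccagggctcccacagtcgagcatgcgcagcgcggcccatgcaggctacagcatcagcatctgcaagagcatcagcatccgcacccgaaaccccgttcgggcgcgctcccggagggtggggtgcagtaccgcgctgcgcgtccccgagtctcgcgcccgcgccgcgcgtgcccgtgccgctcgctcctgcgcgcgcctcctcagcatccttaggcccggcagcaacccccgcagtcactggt

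The Adam15 window held 5 matches to the GC box, all towards its downstream end, and 0 to the other motifs. The Adam19 window held 1 AP-1 match, 1 TEAD match and 1 GC box. The windows of Adam22 and Adam23 held none of the 4 motifs. Among all 32851 windows of the table, 7.81% held the AP-1 site, 35.7% the GC box, 13.6% the TATA box and 14.7% the TEAD site. The windows of Adam15, Adam22 and Adam23 held 25, 19 and 31 CpG dinucleotides, and the Adam19 window shown held 11, beside a median of 7 over all windows (quartiles 3 and 20). The Adam19 windows not shown held 5 each and none of the 4 motifs. The window of Adam8, which was not called, held 6 and 1 GC box. So Adam22, higher at day 15, and Adam23, not higher, both had windows with more CpG dinucleotides than the median and without a match.

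Fibroblast, smooth muscle and visceral endoderm markers differed in the same direction as Adam12 and Adam9. The marker counts that follow stand beside 16.5% called higher and 8.41% called lower over all genes above the filter. All 7 fibroblast markers were called higher, whose signals summed to 215.8 before and 31646 after differentiation, and 4 of them, among them Col1a1 (17.2 and 7728), lay below the control limit before differentiation. Of 4 smooth muscle markers, 3 passed the filter and were called higher (summed signal 725.5 and 19462), while Myh11 read 19.1 and 26.3. Of 4 visceral endoderm markers, 2 passed the filter and were called higher, Afp (1.10 and 870.4) and Ttr (2.70 and 567.0), and the list summed to 26.2 and 1571. The filter uses the mean of both arrays, so markers below it before differentiation could pass only by reading higher at day 15. Passing and being called higher are thus not independent for them, nor for Adam12. Pluripotent markers had 3 of 5 called lower and 0 higher (summed signal 28207 and 13278). Endothelial markers had 1 of 3 called lower, Pecam1 (234.1 and 106.5), and 0 higher (summed signal 403.7 and 332.1). Tek (107.1 and 74.7) also read lower, while Kdr (50.8 and 105.4) and Cdh5 (11.7 and 45.5, below the filter) read higher. Of the skeletal muscle markers, Myog (10.4 and 10.9) and Pax7 (10.4 and 17.8) lay below the control limit on both arrays. Myod1 (21.9 and 35.9) passed it narrowly at day 15. Above the filter, the muscle intermediate filament gene Des read 58.3 and 396.6 (6.80-fold higher), while Myh3 read 59.1 and 44.9. No marker was listed at 0, and the part of these cell types in the Adam12 and Adam9 signals was not tested.

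By distance over the 2 log2 values, the genes most like Adam12 were the apelin receptor gene Aplnr (10.9 and 1314), the cardiac troponin T gene Tnnt2 (5.90 and 1229) and Tmem176b (9.30 and 1416), at distances of 0.19 to 0.30. Those most like Adam11 were Gna14, Vrtn and Star, at distances of 0.03 to 0.06, and 169 genes lay within 0.5 of it, against 7 for Adam12. With 2 arrays a pattern is 2 numbers, so such likeness is loose.

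Among the other ADAM genes, many of which are made in testis, 21 of 26 listed were measured and 3 passed the filter. Of these 1 was called higher and 0 lower (median -0.10), beside 16.5% and 8.41% of all genes above the filter. The called gene was Adam10, which encodes the main Notch protease, at 390.0 and 2382 (6.11-fold). Its other probe sets above the filter read 9.20 and 145.1, and 170.4 and 735.2. Adam17, the TNF-alpha converting enzyme, read 420.4 and 356.7, and Adam4 82.9 and 76.3. Of the 21 genes, 15 lay below the control limit on both arrays.

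**Figure D4:**
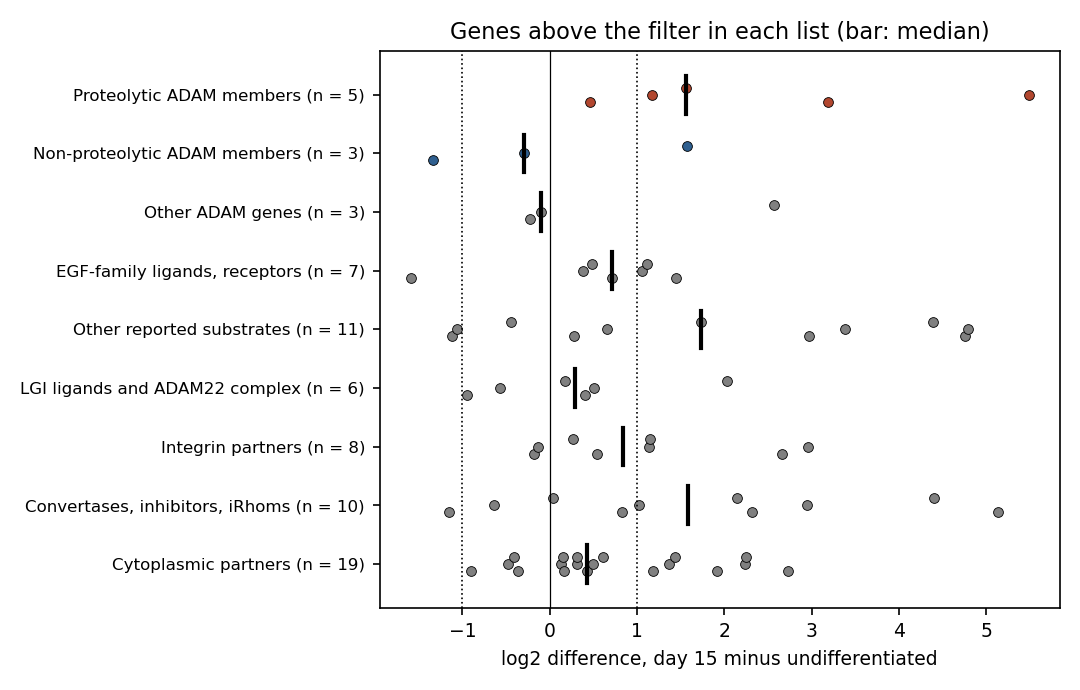
Each point is the log2 difference, day 15 minus undifferentiated, of 1 gene above the filter in the lists of ADAM genes, substrates, ligands and partners; the thick bar is the list's median, n is the number of genes above the filter, and dotted lines mark a log2 difference of 1 in either direction. The substrates other than EGF-family ligands (median 1.74) and the convertases, inhibitors and iRhoms (1.58) have the medians nearest that of the proteolytic ADAM genes (1.56).

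Growth factors that ADAM proteases release, and their receptors, were mixed. Of 14 measured EGF-family ligands and receptors 7 passed the filter. Among them 3 were called higher and 1 lower (median 0.71), beside 16.5% and 8.41% of all genes above the filter. Hbegf, the ligand most often tied to Adam9 and Adam12, read 103.8 and 310.8 (2.99-fold higher), and the neuregulin gene Nrg1, a substrate of the Adam19 product, read 27.3 and 74.3 (at least 2.09-fold). The receptor gene Erbb2 read 62.1 and 152.8 (2.46-fold higher), whereas Erbb3 read 671.9 and 211.8 (3.17-fold lower). Egfr, which encodes the receptor of HB-EGF, read 137.3 and 234.2 on the probe set used, but 3 others above the filter read 23.7 and 311.3, 32.4 and 291.7, and 19.5 and 96.0, and another 51.3 and 25.2. The list had 1 gene called higher with a pseudocount of 64, after quantile normalization or when scaled on the hybridization controls, 0 at the 75th percentile filter, and 0 lower with the mean over probe sets.

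Several other reported substrates of ADAM proteases had large positive differences. Of 16 measured 11 passed the filter, with 6 called higher and 2 lower (median 1.74), beside 16.5% and 8.41% over all genes. Vcam1, an adhesion molecule, read 7.90 and 642.1 (at least 18.0-fold), the prion protein gene Prnp 237.1 and 6830 (28.8-fold), App, the amyloid precursor gene, 186.3 and 4209 (22.6-fold), and Igfbp3, whose product the Adam12 protease cuts, 232.9 and 2581 (11.1-fold). The list's median was 0.31 with quantile normalization and 0.30 with scaling on the hybridization controls.

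Most regulators of ADAM activity above the filter were higher at day 15. Of 11 genes for proprotein convertases, which remove the prodomain, for inhibitors and for iRhoms, 10 passed the filter. Of these 6 were called higher and 1 lower (median 1.58), beside 16.5% and 8.41% of all genes above the filter. Timp3, the tissue inhibitor that blocks several ADAM proteases including the Adam12 product, read 46.4 and 1303 (28.1-fold), Timp2 83.2 and 3451 (41.5-fold), and the membrane-anchored protease inhibitor gene Reck 72.1 and 663.4 (9.20-fold). The convertase gene Pcsk5 read 17.6 and 150.6 (at least 4.23-fold). So Adam12 and Timp3, whose product blocks the Adam12 protease, were both higher on the day 15 array. Protease activity was not measured.

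Partners of the cytoplasmic tails and the disintegrin domains were partly higher. Of 19 cytoplasmic partner genes above the filter 7 were called higher and 0 lower (median 0.43). For these and the integrin genes, the shares over all genes above the filter were 16.5% higher and 8.41% lower. Sh3pxd2a and Sh3pxd2b, which encode the podosome scaffolds TKS5 and TKS4 (TKS5 binds the tails of ADAM12, ADAM15 and ADAM19), read 78.5 and 607.7 (7.74-fold), and 68.7 and 386.2 (5.62-fold). The sorting nexin gene Snx33 read 47.6 and 283.0 (5.95-fold) and the adaptor gene Nck2 146.1 and 596.9 (4.09-fold). Of 8 integrin genes above the filter 4 were called higher and 0 lower (median 0.84): Itga4 by at least 5.04-fold, Itgav by 6.42-fold with 1 probe set in the opposite direction (42.2 and 32.4), Itgb5 by 2.26-fold and Itgb1 by 2.21-fold. Scaling on the hybridization controls left 2 integrin genes called higher (median 0.46), and the mean over probe sets left 1 (median 0.21). For the cytoplasmic partners, scaling on the hybridization controls gave a median of 0.046, with 5 called higher and 1 lower. Quantile normalization and the mean over probe sets also gave 1 cytoplasmic partner called lower (medians 0.34 and 0.34).

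The genes that act with Adam22 at synapses were called higher at about the share over all genes above the filter (16.5% higher, 8.41% lower). Of 12 measured genes of LGI ligands, scaffolds and channels 6 passed the filter, with 1 called higher and 0 lower (median 0.29, but -0.17 with quantile normalization and -0.082 with scaling on the hybridization controls). The called gene was Dlg4, the postsynaptic scaffold that binds the ADAM22 tail, at 29.6 and 169.9 (at least 4.77-fold). Its second probe set read 30.8 and 94.3. Lgi1, the main ligand of ADAM22 and ADAM23, read 18.5 and 14.3, below the control limit on both arrays, Lgi2 read 66.2 and 100.5, Cntnap2 116.2 and 72.8, and the AMPA receptor auxiliary subunit gene Cacng2 57.0 and 21.9.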

How the data were processed

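The 2 mouse samples were each measured on 1 Affymetrix array. Per the labels' protocols, total RNA was column-purified, treated with DNase and turned into biotin-labelled cRNA. The deposited values are linear signal intensity, 1 per probe set, and how the authors summarised the probes is not given in the sources used here. After trimming 2% from each tail, the mean was 250.0 on both arrays.

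The platform annotation gave each probe set its gene, with symbols updated through the RefSeq table of GRCm38.p6. Controls (64) were set aside. The filter kept genes whose mean log2(signal + 16) was at or above the median probe set, a signal of about 36.5. The members and gene lists were chosen with earlier results of these data known. Named were all members with every probe set. From each pathway list, the 4 genes above the filter (or fewer) that differed most in size were named too. The 3 nearest genes were named for the members with the largest difference in each direction. Lgi1, Egfr, Igfbp5, the cell type markers printed and the further probe sets of listed genes were chosen after their values were seen. Gene and call steps were tested on simulated data. A planned look at the proteins' catalytic site was not done, since protein sequences were not used here. The steps ran in Python 3.11.15 with numpy 2.4.6, pandas 2.3.3 and matplotlib 3.10.9.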

Additional observations from a re-analysis of the deposited data

How the results depend on the processing

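The alternatives were a pseudocount of 1 or 64, quantile normalization, scaling on the hybridization controls, the mean over a gene's probe sets, suffixed probe sets (a, s or x) left out, no filter, and a filter at the 75th percentile. Of 58 values of single members under these alternatives, 53 kept their direction and their side of the 2-fold call, 5 kept their direction but no longer reached the call, and 0 changed sign; members below the filter, Adam11 with the mean over probe sets and 5 members at the 75th percentile, have no value there. Part of the 53 could not differ. The filter settings leave a gene's value as it is, and leaving out suffixed probe sets altered only Adam15. The mean over probe sets cannot alter Adam8 and Adam9, which have a single probe set. The members called higher numbered 5 as reported, 3 with the mean over probe sets and 2 at the 75th percentile, and the member called lower numbered 0 with a pseudocount of 64, with the mean over probe sets and at the 75th percentile. Over all genes, 907 were called higher at the 75th percentile (1975 as reported) and 2248 lower with scaling on the hybridization controls (1006 as reported), which moved the median gene by -0.35. Quantile normalization moved it by -0.12. The non-proteolytic median was 0.093 with the mean over probe sets, because Adam11 (-0.57) fell below the filter there; over all 3 genes it was -0.51. Among list medians, other ADAM genes gave 1.17 at the 75th percentile, where fewer genes are left. EGF-family genes gave 1.05 with the mean over probe sets, 1.06 without suffixed probe sets and -1.59 at the 75th percentile. Other substrates gave 0.74 with a pseudocount of 1, 0.31 with quantile normalization, 0.30 with scaling on the controls, 0.70 with the mean over probe sets and 0.82 without a filter. The LGI list gave -0.17 with quantile normalization and -0.082 with scaling on the controls, and integrins 1.13 both without a filter and at the 75th percentile, 0.46 with scaling on the controls and 0.21 with the mean over probe sets. Counts of list genes called lower moved by at most 1 gene. Apart from the smaller set of genes at the stricter filter, the cause was not tested. No paired analysis was possible because each condition has 1 array. Dim signals limit both probe sets of Adam11 and of Adam12, and 1 probe set each of Adam15, Adam22 and Adam23, where 1 array or both lay below the brightest control without target.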
